A study of Homo sapiens with 42 samples.

Results

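Chromatin accessibility was followed at 10 genes of TGF-beta and BMP signalling (TGFB2, INHBA, TGFBR2, SMAD3, SMAD6, SMAD7, ID1, ID2, ID3 and ID4) in 4 lines of EGFR-mutant lung cancer cells. Every region whose annotated symbol was one of these genes was taken, 308 of 242490 annotated regions in all. PC9 contributed 82 of 69565 regions, H1975 95 of 76952, HCC827 35 of 30709 and HCC2935 96 of 65264. The assay was ATAC-seq, in which a transposase cuts open chromatin and the fragments are sequenced, and each region was 502 bases wide. The 42 libraries made 14 groups of 3. Control cells (labelled DMSO) were grown drug-free for 21 days and then given the solvent for 3 days. DTP cells, the drug-tolerant persisters that outlive treatment, received 500 nM of osimertinib, an inhibitor of mutant EGFR, for 24 days. Combination cells received osimertinib for 21 days and then 150 nM of AZD5153, a bromodomain inhibitor, for 3 days, with no label on whether osimertinib went on meanwhile. AZD5153 cells, made from PC9 and H1975 only, received 150 nM of AZD5153 for 3 days after 21 drug-free days. Each is 1 established cell line, so differences between lines concern these 4 lines.

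TGF-beta and activin ligands bind paired type II and type I serine/threonine kinase receptors, which phosphorylate SMAD2 and SMAD3, whereas BMP ligands act through SMAD1, SMAD5 and SMAD9. The phosphorylated SMADs join SMAD4 in the nucleus and act with other factors such as AP-1 at enhancers and promoters. SMAD6 and SMAD7 feed back on the receptors, and the ID genes are classic BMP targets whose products hold basic helix-loop-helix factors off DNA. In lung epithelium this signalling is known for growth arrest and for epithelial-mesenchymal transition.

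Promoter windows, from 250 bases before to 50 bases after an annotated start, are shown for 4 genes whose promoter regions carry the results below (RefSeq starts, GRCh38.p14), to give the letters under the counted region. The genes run from ligand to inhibitor. Capitals mark matches, on either strand, to 1 of 6 motifs searched: the SMAD palindrome GTCTAGAC, the SMAD GC element GGCGCC, the AP-1 motif TGANTCA, the TEAD motif GGAATG, the E-box CACGTG and the ETS motif CCGGAAG.
TGFB2, chr1:218345086-218345385, plus strand: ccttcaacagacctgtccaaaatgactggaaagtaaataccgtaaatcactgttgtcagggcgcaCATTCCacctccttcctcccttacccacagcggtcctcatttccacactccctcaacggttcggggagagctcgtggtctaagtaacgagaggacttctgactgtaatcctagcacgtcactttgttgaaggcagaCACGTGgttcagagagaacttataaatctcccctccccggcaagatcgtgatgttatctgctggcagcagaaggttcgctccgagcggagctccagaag
TGFBR2, chr3:30606351-30606650, plus strand: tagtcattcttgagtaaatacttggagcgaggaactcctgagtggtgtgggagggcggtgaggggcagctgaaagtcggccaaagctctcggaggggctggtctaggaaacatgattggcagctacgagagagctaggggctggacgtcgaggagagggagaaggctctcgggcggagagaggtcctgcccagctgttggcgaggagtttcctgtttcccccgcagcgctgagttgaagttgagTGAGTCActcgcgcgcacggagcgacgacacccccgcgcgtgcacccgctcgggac
SMAD3, chr15:67065352-67065651, plus strand: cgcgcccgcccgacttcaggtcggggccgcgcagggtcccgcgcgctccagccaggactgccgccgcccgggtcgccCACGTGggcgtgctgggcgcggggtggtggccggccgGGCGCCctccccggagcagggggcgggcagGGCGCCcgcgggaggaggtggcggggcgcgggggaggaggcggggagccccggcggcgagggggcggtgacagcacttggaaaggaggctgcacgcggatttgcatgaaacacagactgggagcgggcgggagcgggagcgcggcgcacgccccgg
SMAD6, chr15:66701986-66702285, plus strand: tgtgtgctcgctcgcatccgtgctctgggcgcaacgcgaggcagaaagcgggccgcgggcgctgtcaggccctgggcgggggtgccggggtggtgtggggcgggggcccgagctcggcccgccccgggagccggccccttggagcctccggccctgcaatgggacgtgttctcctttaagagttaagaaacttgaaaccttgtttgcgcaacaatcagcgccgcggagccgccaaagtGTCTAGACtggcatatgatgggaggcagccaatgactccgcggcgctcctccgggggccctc
The TGFB2 window held a TEAD match, read on the opposite strand as CATTCC, and an E-box. The TGFBR2 window held an AP-1 match, the SMAD3 window an E-box and a pair of SMAD GC elements, and the SMAD6 window a SMAD palindrome. Among 17 promoter windows of the 10 genes, 1 held the palindrome, against 0.202% of 35116 RefSeq promoter windows of the same length. The GC element was in 1 of the 17 against 19.2%, AP-1 in 2 against 7.71%, TEAD in 3 against 14.03%, the E-box in 2 against 7.26%, and the ETS motif in 0 against 10.3%. A match describes letters in the window and is no evidence of binding.

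PC9 libraries held 3989287 to 5193390 counts, H1975 libraries 6200672 to 10062505, HCC827 libraries 1724680 to 4242868 and HCC2935 libraries 3968690 to 8066287, and values are given as CPM (counts scaled to a common library total) within each line's own table. The libraries were labelled biological triplicates, but in PC9 the 3 libraries of a group differed by no more than sampling noise in 9 of 12 pairs, and in H1975 in 6 of 12 pairs. For that reason calls at the 10 genes in PC9, H1975 and HCC2935 are set beside a second adjusted p, in which a group's libraries were summed to 1 sample and given the spread between HCC2935 libraries. HCC827 libraries, by contrast, varied by 44.9% beyond sampling noise (coefficient of variation), against 10.1% in HCC2935. HCC827 libraries with the same number deviated together in 9 of 9 pairs, so its values are also given with the replicate number as a block where that changed a call. Promoter regions of 5 of 5 epithelial marker genes were present in each line, and of 1 (PC9) to 3 (H1975) of 3 lung marker genes. Among 5 markers of leukocytes, endothelium and fibroblasts, PC9 had promoter regions of 3, H1975 of 4, HCC827 of 0 and HCC2935 of 2. Only annotated regions were searched, of which HCC827 had the fewest. A promoter can be open without expression, so these counts are a check of the labels only. In these bulk libraries, fewer cells with an open region and a less open region in each cell cannot be told apart.

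The comparison of DTP with control cells asked how accessibility at these genes stood after osimertinib (edgeR quasi-likelihood test, Benjamini-Hochberg adjusted p under 0.05 over all regions of the line). All 308 regions passed the filter on low counts. Fold changes are given on the log2 scale ± SE, with 3 libraries a group. In PC9, called regions of the 10 genes were mostly lower in DTPs. There 8 of 82 regions rose and 30 fell, or 9.76% and 36.6%, where 15.5% of all tested regions rose and 16.3% fell. The median log2 fold change of the PC9 regions was −0.18, against 0.02 over all tested regions. With libraries summed, 3 rose and 20 fell, and 19.5% of all regions were called. All tested regions of a line include many that are not among its annotated regions, from which the 10 genes' regions come. In a fit of annotated PC9 regions only, 13256 of 69565 rose and 14248 fell. In HCC2935 the balance lay the other way, with 36 of 96 regions higher and 18 lower (37.5% and 18.8%, against 18.4% and 19% of all regions) and a median of 0.21 against −0.02. With the median change of each 10 Mb bin removed, the HCC2935 split became 22 higher and 23 lower, where 15.9% of all regions rose and 16% fell. With libraries summed it was 31 and 16, where 32.9% of all regions were called. In a fit of annotated HCC2935 regions only, 14833 of 65263 rose and 15887 fell.

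In H1975, 28 of 95 regions rose and 38 fell (29.5% and 40.0%, against 24.8% and 27% of all regions), with a median of −0.15 against 0.02. Scaling by library size only turned this split to 37 higher and 28 lower (against 32.3% and 22.3% of all regions) and put the median of all H1975 regions at 0.19. With libraries summed, 18 rose and 22 fell, where 40.3% of all regions were called. In a fit of annotated H1975 regions only, 24073 of 76952 rose and 26203 fell. In HCC827, 0 of 35 regions were called, where 0.0207% of all regions rose and 0.00607% fell. At an unadjusted p under 0.05 there were 5 of these 35 regions, and DESeq2 also called 0. With the replicate block, 1 region was called in HCC827, an internal SMAD3 start that fell, where 3.59% of all regions were called.

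**Figure D1:**
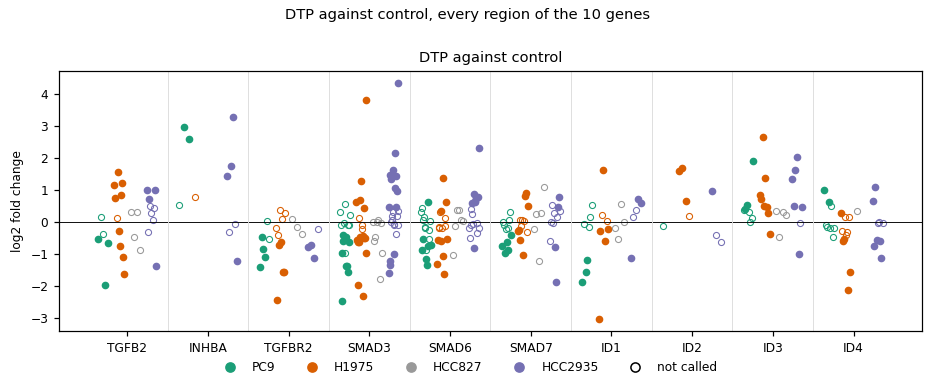
Log2 fold change of DTP over control cells (y axis, edgeR) for each annotated region of the 10 genes (x axis), coloured by line, with filled points for called regions and open points for the rest. PC9 has called SMAD3 and TGFBR2 regions only below 0, whereas in HCC2935 most called SMAD3 regions lie above 0, and in HCC827 all points are open. The 10 Mb bin around SMAD3 rose by 0.37 in HCC2935.

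The plot of DTP fold changes by gene shows that single genes held regions moving in both directions. TGFBR2 was an exception, with 0 regions higher and 4 of 6 lower in PC9, 5 of 10 in H1975 and 3 of 4 in HCC2935. ID2 was another, with 0 regions lower and 0 of 1 higher in PC9, 3 of 4 in H1975 and 1 of 3 in HCC2935. SMAD3 had 0 higher and 9 of 17 lower in PC9, 5 higher and 10 lower of 18 in H1975, and 11 higher and 4 lower of 25 in HCC2935. The 10 Mb bin around SMAD3 rose by 0.37 in HCC2935 DTPs. ID3 had more regions called higher than lower, with 3 of 7 higher in PC9, 7 of 8 in H1975 and 5 of 7 in HCC2935, and 0, 1 and 1 lower. Of all tested regions, 15.5% rose and 16.3% fell in PC9, 24.8% and 27% in H1975, and 18.4% and 19% in HCC2935. With libraries summed, calls either way in these 3 lines were 2, 4 and 3 for TGFBR2 and 0, 2 and 1 for ID2. They were 6, 8 and 13 for SMAD3, and 1, 4 and 4 for ID3. Each gene had few regions, so these counts are description only.

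TGFB2 encodes a secreted TGF-beta ligand. Its promoter region (chr1:218344951-218345452 in PC9, over the window printed above) was more open in DTPs of H1975 and HCC2935. In H1975 the control libraries held 8.30, 9.25 and 8.43 CPM and the DTP libraries 19.0, 20.7 and 18.3 CPM, a 2.22-fold rise (log2 fold change 1.15 ± 0.12, adjusted p = 2.47e-18, 1.33e-05 with libraries summed). The H1975 groups did not overlap, and the 10 Mb bin around the gene rose by 0.27. In HCC2935 the values went from 10.9, 10.5 and 10.8 to 20.2, 22.2 and 22.2 CPM, a 2.00-fold rise (log2 fold change 1.003 ± 0.16, adjusted p = 1.22e-06, 0.000362 with libraries summed), again without overlap. PC9 ran the other way, from 11.2, 11.6 and 13.3 to 8.95, 8.69 and 7.43 CPM (log2 fold change −0.53 ± 0.17, adjusted p = 0.0081, 0.146 with libraries summed). That PC9 call was lost without control replicate 3 (adjusted p = 0.0693) and without DTP replicate 3 (0.0633). HCC827 held 10.7, 12.8 and 11.6 CPM in control and 13.8, 10.9 and 18.7 CPM in DTP libraries, which overlapped (log2 fold change 0.33 ± 0.40, adjusted p = 1).

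Inside TGFB2, an intronic region of PC9 (chr1:218377255-218377756) fell steeply, from 22.1, 16.8 and 15.5 to 4.28, 3.31 and 6.02 CPM (log2 fold change −1.97 ± 0.18, adjusted p = 3.07e-24, 3.00e-10 with libraries summed). The control libraries stood far above the DTP libraries there. A neighbouring intronic region fell in PC9 (log2 fold change −0.63 ± 0.19, adjusted p = 0.00494, 0.092 with libraries summed) and rose in H1975 (log2 fold change 0.85 ± 0.17, adjusted p = 4.96e-06, 0.00657 with libraries summed). In HCC2935 an intronic region 4429 bases before an internal start also fell (log2 fold change −1.36 ± 0.32, adjusted p = 0.000602, 0.000354 with libraries summed).

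Where a region was matched between lines, its counts were read from each line's full table, also where the annotated table did not list it. INHBA encodes the beta A chain of activins and inhibins, ligands that signal to SMAD2 and SMAD3. Its annotated regions were few (PC9 had 3, H1975 had 1, HCC827 had 0 and HCC2935 had 6). The region with the steepest common rise lay 45051 bases before the start, in an intron (chr7:41750885-41751386 in PC9). PC9 went from 0.254, 0.609 and 0.992 to 4.67, 4.97 and 6.22 CPM (log2 fold change 2.98 ± 0.39, adjusted p = 3.28e-12, 7.58e-09 with libraries summed). H1975 went from 0.138, 0.120 and 0.361 to 1.83, 1.72 and 1.80 CPM (log2 fold change 3.00 ± 0.52, adjusted p = 1.94e-07). There the region was not among the annotated regions, for which alone values with libraries summed were kept. In both lines each DTP library was above each control library, which held few reads. HCC2935 went from 0.740, 1.498 and 0.789 to 4.11, 2.76 and 3.396 CPM (log2 fold change 1.76 ± 0.43, adjusted p = 0.00101, 0.000455 with libraries summed). HCC827 libraries held 0.627, 0.399 and 0.527 CPM in control and 0.461, 5.44 and 2.47 CPM in DTPs. A region some 3 kb farther out (48144 bases before the start) rose in PC9 from 1.02, 1.62 and 1.39 to 8.37, 9.93 and 6.83 CPM (log2 fold change 2.59 ± 0.29, adjusted p = 2.86e-16, 5.03e-10 with libraries summed) and rose in HCC2935 (log2 fold change 3.27 ± 0.37, adjusted p = 9.59e-10, 3.84e-13 with libraries summed). Both control groups were near the bottom of the scale.

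The INHBA promoter region (chr7:41702887-41703388 in PC9) rose 2.73-fold in HCC2935, from 4.07, 4.24 and 3.42 to 12.8, 8.97 and 10.7 CPM (log2 fold change 1.45 ± 0.23, adjusted p = 2.54e-06, 1.29e-05 with libraries summed). In PC9 it stood at 4.07, 3.25 and 3.97 CPM in control and 5.65, 4.97 and 5.62 CPM in DTP libraries (log2 fold change 0.53 ± 0.25, adjusted p = 0.0943). The PC9 groups did not overlap, but the difference did not pass the test.

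**Figure D2:**
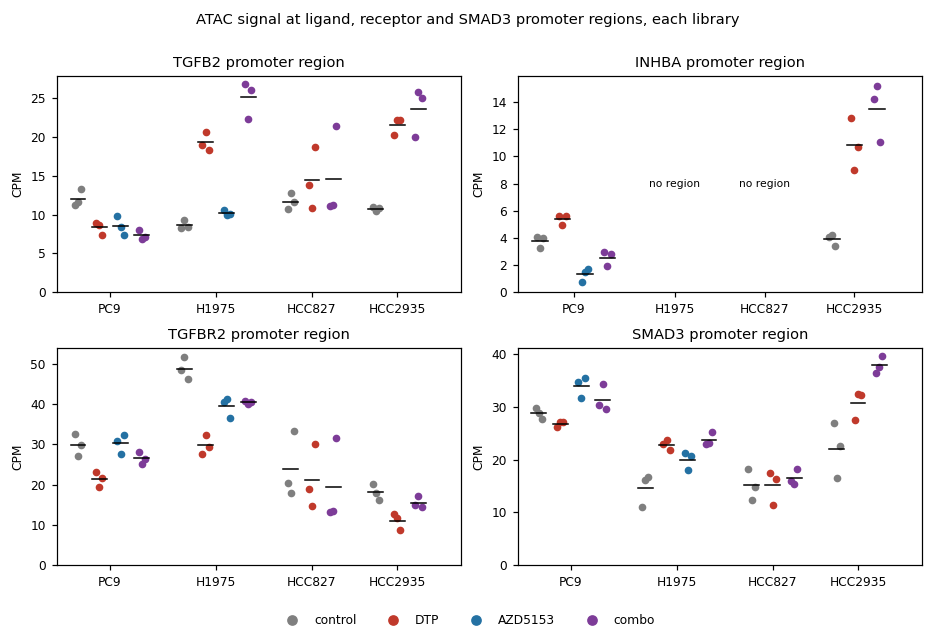
CPM (y axis) of the promoter regions of TGFB2, INHBA, TGFBR2 and SMAD3 in each library (points) of each group and line, with a bar at the group mean of 3 libraries; each line is scaled within its own table. TGFB2 DTP points lie above control points in H1975 and HCC2935 and below them in PC9, and TGFBR2 DTP points lie below control points in PC9, H1975 and HCC2935.

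TGFBR2 encodes the type II receptor that binds TGF-beta ligands. Its promoter region (chr3:30606241-30606742 in PC9, over the AP-1 match printed above) was less open in DTPs of 3 lines. PC9 went from 32.5, 27.2 and 30.0 to 23.2, 19.5 and 21.7 CPM (log2 fold change −0.47 ± 0.11, adjusted p = 0.000117, 0.139 with libraries summed). H1975 went from 48.7, 51.8 and 46.3 to 27.7, 32.3 and 29.3 CPM (log2 fold change −0.71 ± 0.07, adjusted p = 8.52e-18, 0.00286 with libraries summed). In both lines each DTP library was below each control library, and in PC9 the call did not hold with libraries summed. HCC2935 went from 20.2, 18.0 and 16.0 to 12.6, 11.6 and 8.73 CPM (log2 fold change −0.72 ± 0.16, adjusted p = 0.000477, 0.0152 with libraries summed), where the bin around the gene moved by −0.29. HCC827 libraries overlapped, at 20.4, 18.0 and 33.4 CPM in control and 18.9, 14.7 and 30.1 CPM in DTPs (log2 fold change −0.16 ± 0.43, adjusted p = 1). An upstream region of PC9 fell more steeply than the promoter region, by 1.40 ± 0.25 on the log2 scale at 8908 bases before the start in PC9 (adjusted p = 4.16e-07, 0.000261 with libraries summed). The matching region was lower in HCC2935 (log2 fold change −0.77 ± 0.21, adjusted p = 0.00256, 0.0186 with libraries summed) and not called in H1975 (log2 fold change −0.38 ± 0.20, adjusted p = 0.101). In H1975 a region 10044 bases before the start went from 5.81, 6.61 and 5.06 to 1.37, 1.11 and 0.799 CPM (log2 fold change −2.41 ± 0.25, adjusted p = 1.39e-17, 4.79e-12 with libraries summed). An exonic region of H1975 4371 bases before an internal start also fell (log2 fold change −1.56 ± 0.26, adjusted p = 7.44e-08, 1.71e-05 with libraries summed).

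SMAD3 encodes the SMAD that carries TGF-beta and activin signals to the nucleus. Its main promoter region (chr15:67065411-67065912 in PC9) rose in H1975 from 11.1, 16.1 and 16.7 to 22.9, 23.7 and 21.9 CPM (log2 fold change 0.63 ± 0.10, adjusted p = 1.68e-08, 0.0226 with libraries summed). In HCC2935 it rose from 27.0, 16.5 and 22.6 to 27.5, 32.4 and 32.3 CPM (log2 fold change 0.46 ± 0.13, adjusted p = 0.00496, 0.106 with libraries summed). The bin around SMAD3 and SMAD6 rose by 0.37 in HCC2935, and with bin medians removed the promoter region was not called (adjusted p = 0.559). The HCC2935 call was also lost without control replicate 2 (adjusted p = 0.0674). PC9 stood at 29.8, 28.8 and 27.8 and 26.3, 27.1 and 27.1 CPM (log2 fold change −0.10 ± 0.10, adjusted p = 0.5) and HCC827 at 18.2, 12.4 and 14.7 and 17.5, 11.4 and 16.4 CPM (log2 fold change 0.01 ± 0.35, adjusted p = 1).

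An intronic SMAD3 region some 6 kb before an internal start (chr15:67178532-67179033 in H1975) held the largest rises of the 308 regions. H1975 control libraries were nearly closed there, at 0.692, 0.961 and 0.602 CPM, and DTP libraries held 9.72, 11.8 and 10.9 CPM, a 14.1-fold rise (log2 fold change 3.82 ± 0.24, adjusted p = 3.38e-38, 3.60e-26 with libraries summed). HCC2935 went from 1.67, 0.749 and 2.10 to 35.7, 29.3 and 29.4 CPM, a 20.5-fold rise (log2 fold change 4.36 ± 0.22, adjusted p = 5.24e-20, 2.18e-36 with libraries summed). In PC9 the region was already open in control libraries, at 16.3, 15.2 and 21.4 CPM, and DTP libraries held 18.7, 23.4 and 20.7 CPM (log2 fold change 0.23 ± 0.12, adjusted p = 0.139). HCC827 held 1.25, 0.399 and 0.527 CPM in control and 6.92, 4.35 and 18.0 CPM in DTP libraries, without overlap (log2 fold change 3.70 ± 0.70, adjusted p = 0.0992). The DTP change at this region differed between lines (limma interaction, adjusted p = 7.70e-11 over 4 lines and 4.99e-15 without HCC827).

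A second SMAD3 region, at an internal start (chr15:67127142-67127643 in PC9), fell in DTPs of 3 lines. PC9 went from 17.3, 11.4 and 14.7 to 6.42, 6.41 and 3.61 CPM (log2 fold change −1.37 ± 0.18, adjusted p = 3.18e-12, 1.81e-05 with libraries summed), H1975 from 46.2, 47.4 and 38.6 to 8.12, 9.63 and 8.69 CPM (log2 fold change −2.31 ± 0.10, adjusted p = 1.30e-61, 2.80e-21 with libraries summed). HCC2935 went from 45.3, 28.7 and 31.8 to 19.1, 19.7 and 14.7 CPM (log2 fold change −0.998 ± 0.16, adjusted p = 1.81e-06, 0.000141 with libraries summed). In these 3 lines the groups stood apart. In HCC827 the values were 28.8, 13.97 and 30.5 CPM in control and 6.46, 3.27 and 11.0 CPM in DTP libraries (log2 fold change −1.76 ± 0.58, adjusted p = 0.383), which with the replicate block became a log2 fold change of −1.88, adjusted p = 0.00159. The sizes of the fall differed between lines (interaction adjusted p = 0.00338, and 5.70e-05 without HCC827).

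An intronic SMAD3 region of PC9 (chr15:67146949-67147450) fell from 22.6, 15.8 and 17.7 to 6.62, 5.38 and 6.83 CPM (log2 fold change −1.55 ± 0.16, adjusted p = 3.10e-18, 3.50e-07 with libraries summed). The matching region was lower in H1975 (log2 fold change −0.49 ± 0.18, adjusted p = 0.0132, 0.119 with libraries summed) and not called in HCC2935 (log2 fold change −0.35 ± 0.17, adjusted p = 0.0967). H1975 lost most of an intronic region 7717 bases after a start (log2 fold change −1.95 ± 0.22, adjusted p = 3.17e-15, 1.08e-09 with libraries summed). In HCC2935 a region 2065 bases before an internal start rose (log2 fold change 2.16 ± 0.31, adjusted p = 1.86e-07, 4.00e-08 with libraries summed), while regions 3443 bases after and 1345 bases before other starts fell (log2 fold change −1.57 ± 0.24, adjusted p = 8.57e-07, 4.27e-07 with libraries summed, and log2 fold change −1.33 ± 0.29, adjusted p = 0.000296, 0.00063 with libraries summed). The last of these was also lower in H1975 (log2 fold change −0.57 ± 0.22, adjusted p = 0.0252, 0.109 with libraries summed).

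**Figure D3:**
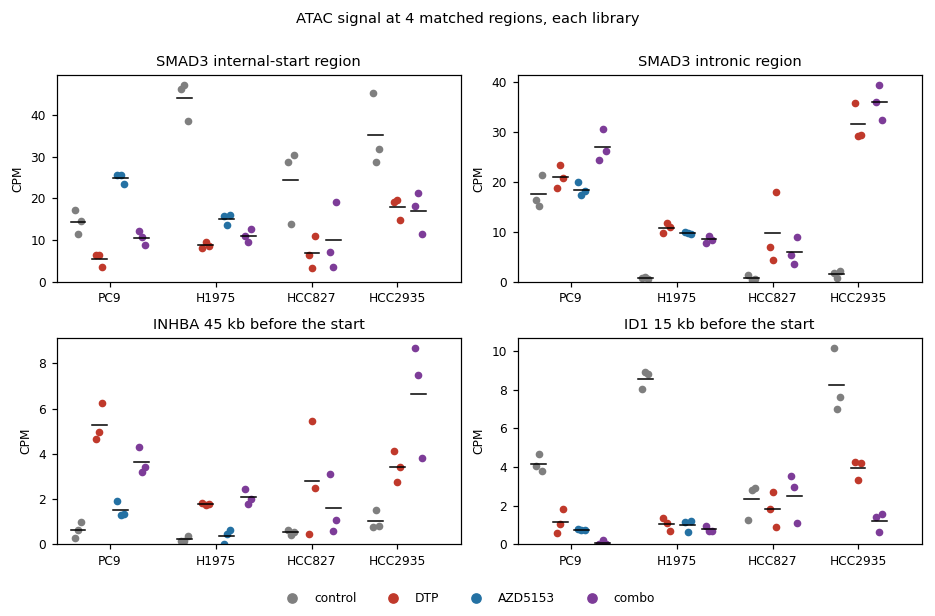
CPM (y axis) in each library (points, with a bar at the mean of 3) at 4 regions matched across the 4 lines: the SMAD3 internal start, the SMAD3 intronic region, the INHBA region 45 kb before the start and the ID1 region 15 kb before the start. The SMAD3 intronic region is near 0 in control libraries of H1975 and HCC2935 and high in their DTP libraries, but open in every PC9 group.

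SMAD6 and SMAD7 encode the inhibitory SMADs that block receptor signalling. Together their regions rose in 1 and fell in 11 of 28 cases in PC9, 6 and 10 of 27 in H1975, and 9 and 3 of 28 in HCC2935, with medians of −0.23, −0.15 and 0.21. Over all tested regions, 15.5% rose and 16.3% fell in PC9, 24.8% and 27% in H1975, and 18.4% and 19% in HCC2935, with medians of 0.02, 0.02 and −0.02. Of the 9 rises in HCC2935, 7 were SMAD6 regions, and the 10 Mb bin around SMAD6 rose by 0.37 in that line. An intronic SMAD6 region 39963 bases after the start (chr15:66751660-66752161 in PC9) was lower in 3 lines. It went from 3.05, 1.62 and 2.18 to 0.584, 1.03 and 1.004 CPM in PC9 (log2 fold change −1.33 ± 0.46, adjusted p = 0.0148, 0.0356 with libraries summed). In H1975 it fell (log2 fold change −1.04 ± 0.24, adjusted p = 9.49e-05, 0.00319 with libraries summed), as in HCC2935 (log2 fold change −0.79 ± 0.24, adjusted p = 0.00743, 0.0161 with libraries summed), and a difference between lines was not detected (interaction adjusted p = 0.759, and 0.818 without HCC827). In HCC2935 a region 86870 bases after the start rose (log2 fold change 2.33 ± 0.44, adjusted p = 4.16e-05, 2.83e-05 with libraries summed), and in PC9 a region 8536 bases after the start fell (log2 fold change −1.14 ± 0.17, adjusted p = 4.24e-10, 0.000305 with libraries summed). The matching region also fell in H1975 (log2 fold change −0.59 ± 0.12, adjusted p = 2.88e-06, 0.0251 with libraries summed) and was not called in HCC2935 (log2 fold change −0.06 ± 0.18, adjusted p = 0.83).

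The SMAD6 promoter region, over the printed palindrome, rose in H1975 from 12.6, 10.8 and 13.7 to 13.95, 16.7 and 16.9 CPM (log2 fold change 0.36 ± 0.11, adjusted p = 0.00354, 0.24 with libraries summed), a call lost without control replicate 2 (adjusted p = 0.0655). In HCC2935 it rose from 21.7, 27.2 and 19.7 to 28.1, 40.6 and 34.3 CPM (log2 fold change 0.59 ± 0.13, adjusted p = 0.000362, 0.0253 with libraries summed), and was not called with bin medians removed (adjusted p = 0.184). The groups did not overlap in either line. In PC9 the region over the start held 15.3, 18.5 and 16.5 CPM in control and 14.99, 15.9 and 14.3 CPM in DTP libraries (log2 fold change −0.16 ± 0.13, adjusted p = 0.382). The strongest PC9 promoter region of SMAD6, by the mean over all PC9 groups, lay 964 bases before the start and held 15.3, 14 and 15.3 CPM in control and 14.4, 15.9 and 16.5 CPM in DTP libraries (log2 fold change 0.07 ± 0.14, adjusted p = 0.731).

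At SMAD7 a region 192 bases after an internal start (chr18:48949731-48950232 in PC9) was lower in DTPs. PC9 fell (log2 fold change −0.85 ± 0.23, adjusted p = 0.00143, 0.0312 with libraries summed), as did H1975 (log2 fold change −1.03 ± 0.14, adjusted p = 3.58e-11, 0.000126 with libraries summed). HCC2935 went from 9.25, 9.98 and 7.37 to 2.21, 2.35 and 2.75 CPM (log2 fold change −1.86 ± 0.26, adjusted p = 2.00e-07, 1.00e-07 with libraries summed). HCC827 had 5.64, 5.19 and 8.95 CPM in control and 1.38, 3.27 and 1.12 CPM in DTPs (log2 fold change −1.85 ± 0.61, adjusted p = 0.377). In contrast, the H1975 promoter region 395 bases before the first start rose from 7.74, 10.2 and 8.92 to 15.2, 15.4 and 17.3 CPM (log2 fold change 0.83 ± 0.12, adjusted p = 4.26e-10, 0.00278 with libraries summed), with a bin shift of 0.20. The matching PC9 region held 12.0, 12.4 and 10.5 CPM in control and 11.3, 12.2 and 12.6 CPM in DTP libraries (log2 fold change 0.06 ± 0.16, adjusted p = 0.821). In HCC2935 it rose from 6.85, 8.49 and 8.94 to 10.1, 12.1 and 11.3 CPM (log2 fold change 0.49 ± 0.20, adjusted p = 0.0487, 0.126 with libraries summed). HCC827 held 5.64, 4.79 and 8.42 CPM in control and 9.23, 10.3 and 20.9 CPM in DTPs, which did not overlap and did not pass the test (log2 fold change 1.11 ± 0.48, adjusted p = 0.647).

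The ID genes encode helix-loop-helix proteins without a DNA-binding domain. Across the ID genes, 5 regions rose and 3 fell of 23 in PC9, 12 and 9 of 29 in H1975, and 10 and 6 of 24 in HCC2935. The shares of all regions were those given for SMAD6 and SMAD7 (15.5% and 16.3%, 24.8% and 27%, and 18.4% and 19%). ID3 had regions behind the gene that opened in DTPs of 3 lines. At chr1:23556552-23557053, 2022 bases after the start, PC9 went from 12.0, 9.33 and 8.93 to 14.2, 16.97 and 12.2 CPM (log2 fold change 0.54 ± 0.16, adjusted p = 0.00307, 0.144 with libraries summed), a call lost without DTP replicate 2 (adjusted p = 0.0594). H1975 went from 3.87, 5.53 and 3.74 to 10.6, 12.0 and 11.5 CPM (log2 fold change 1.37 ± 0.15, adjusted p = 2.16e-15, 1.88e-06 with libraries summed). HCC2935 went from 0.925, 3.24 and 1.32 to 9.49, 6.21 and 6.15 CPM (log2 fold change 2.04 ± 0.33, adjusted p = 2.30e-06, 1.90e-07 with libraries summed). The rise was steepest in HCC2935, and the sizes differed between lines (interaction adjusted p = 7.23e-05, and 0.00258 without HCC827). A neighbour 2635 bases after the start rose in the same 3 lines, with log2 fold changes of 0.41 ± 0.15, 0.50 ± 0.12 and 1.62 ± 0.26 (adjusted p = 0.0237, 0.000118 and 2.67e-06, or 0.302, 0.0938 and 4.03e-06 with libraries summed). H1975 gained a further ID3 region 3178 bases after the start, from 0.692, 0.601 and 0.843 to 3.66, 4.76 and 5.09 CPM (log2 fold change 2.65 ± 0.30, adjusted p = 4.91e-15, 6.17e-11 with libraries summed).

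The ID3 promoter region was called in H1975 only. PC9 held 14.5, 18.7 and 16.9 CPM in control and 15.8, 16.6 and 18.1 CPM in DTP libraries (log2 fold change −0.00 ± 0.13, adjusted p = 0.988). HCC2935 held 17.4, 20.5 and 18.4 and 19.0, 18.5 and 18.3 CPM (log2 fold change −0.01 ± 0.14, adjusted p = 0.974). In H1975 the values were 17.3, 19.4 and 14.8 and 20.01, 20.8 and 22.0 CPM (log2 fold change 0.29 ± 0.10, adjusted p = 0.00877, 0.358 with libraries summed), and that call was lost without control replicate 3 (adjusted p = 0.151) and without DTP replicate 3 (0.05004).

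ID1 showed the opposite sign at distance. Its region 15246 bases before the start (chr20:31589536-31590037 in PC9) fell in PC9 from 4.07, 4.67 and 3.77 to 0.584, 1.03 and 1.81 CPM (log2 fold change −1.85 ± 0.38, adjusted p = 2.14e-05, 0.000165 with libraries summed). H1975 went from 8.02, 8.89 and 8.80 to 1.37, 1.11 and 0.699 CPM, 8.10-fold lower (log2 fold change −3.02 ± 0.23, adjusted p = 2.81e-28, 2.03e-19 with libraries summed). HCC2935 went from 10.2, 6.99 and 7.63 to 4.27, 3.31 and 4.21 CPM (log2 fold change −1.10 ± 0.25, adjusted p = 0.00057, 0.00129 with libraries summed). The 3 lines kept the DTP and control libraries apart, and the sizes differed between lines (interaction adjusted p = 0.00286, and 0.00409 without HCC827). In HCC827 this region held 1.25, 2.79 and 2.896 CPM in control and 1.85, 2.72 and 0.899 CPM in DTPs. H1975 also gained an ID1 region 8768 bases before the start (log2 fold change 1.64 ± 0.24, adjusted p = 1.23e-09, 4.79e-06 with libraries summed). The ID1 promoter region rose in HCC2935 from 26.3, 26.7 and 23.1 to 40.3, 39.9 and 44.96 CPM (log2 fold change 0.71 ± 0.12, adjusted p = 5.06e-06, 0.00717 with libraries summed), where the surrounding bin rose by 0.36, and the strongest promoter region was not called in the other lines. At the ID1 start itself (chr20:31604896-31605397 in H1975) the region was lower in H1975 DTPs (log2 fold change −0.21 ± 0.09, adjusted p = 0.0305, 0.434 with libraries summed), higher in HCC2935 (log2 fold change 0.60 ± 0.12, adjusted p = 7.07e-05, 0.026 with libraries summed) and not called in PC9 (log2 fold change 0.17 ± 0.14, adjusted p = 0.378).

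ID2 had an annotated promoter region in H1975 only, which does not show that the promoter was closed in the other lines. The H1975 region went from 0.968, 0.601 and 0.964 to 3.32, 1.82 and 2.60 CPM (log2 fold change 1.59 ± 0.34, adjusted p = 1.70e-05, 0.00035 with libraries summed), and the deposited peak lists held a peak there in 0 of 3 control and 2 of 3 DTP libraries. A region 2095 bases after the ID2 start rose with it (log2 fold change 1.71 ± 0.29, adjusted p = 1.24e-07, 2.12e-05 with libraries summed). The ID4 promoter region (chr6:19837069-19837570 in PC9) was higher in DTPs of 3 lines. PC9 went from 1.27, 2.43 and 1.59 to 3.70, 4.35 and 2.81 CPM (log2 fold change 0.996 ± 0.34, adjusted p = 0.0131, 0.0599 with libraries summed). A stronger PC9 region 228 bases after the ID4 start held 7.37, 7.91 and 9.72 CPM in control and 7.79, 7.66 and 8.43 CPM in DTP libraries (log2 fold change −0.08 ± 0.19, adjusted p = 0.786). HCC2935 went from 17.03, 16.5 and 18.7 to 26.7, 27.2 and 29.1 CPM (log2 fold change 0.67 ± 0.13, adjusted p = 5.10e-05, 0.0144 with libraries summed). In H1975 the difference was small (log2 fold change 0.29 ± 0.10, adjusted p = 0.0127, 0.357 with libraries summed) and was lost without control replicate 3 (adjusted p = 0.0863). Far from the gene, an H1975 region 42116 bases after the ID4 start fell from 15.5, 13.9 and 11.8 to 2.52, 2.74 and 4.19 CPM (log2 fold change −2.10 ± 0.16, adjusted p = 1.05e-28, 4.28e-14 with libraries summed), and one at 68124 bases also fell (log2 fold change −1.54 ± 0.24, adjusted p = 8.88e-09, 7.61e-06 with libraries summed).

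**Figure D4:**
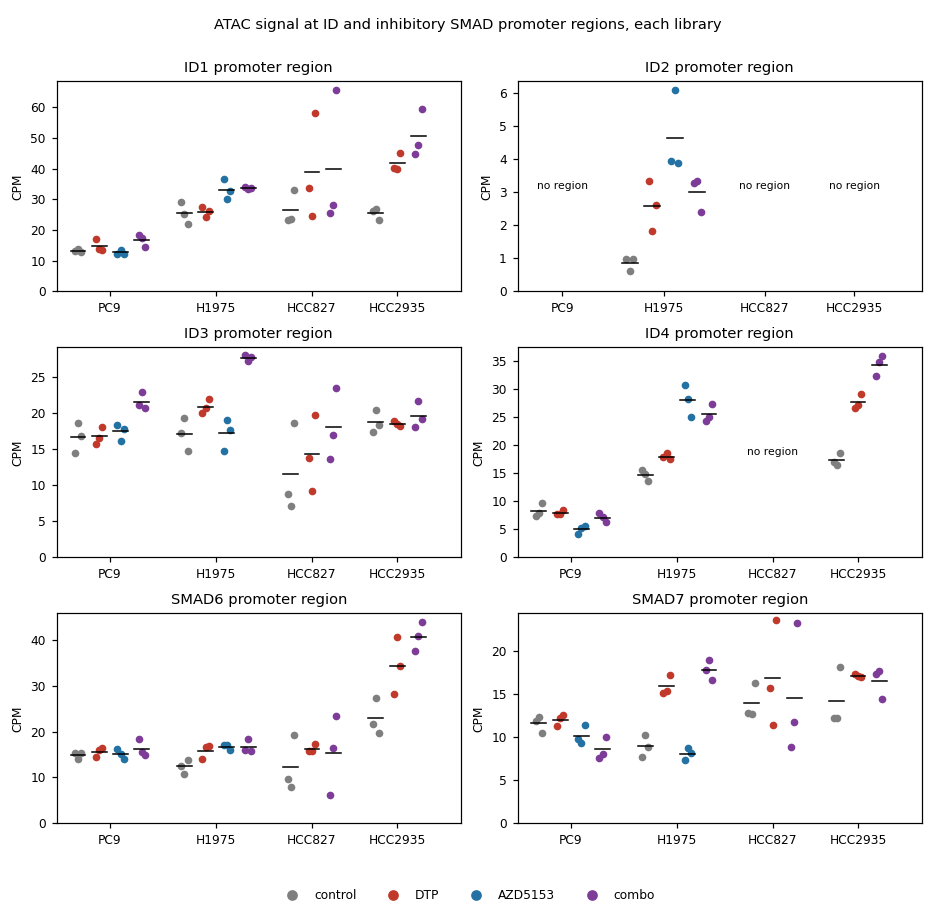
CPM (y axis) of the promoter regions of ID1 to ID4, SMAD6 and SMAD7 in each library (points) of each group and line, with a bar at the mean of 3; the region is the strongest within 1 kb of a start in each line, so it can differ between lines. In H1975 the ID2 points are lowest in control cells and the SMAD7 points highest in DTP and combination cells.

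Regions were matched across the tables where they overlapped by at least 50% both ways, which gave 82802 regions, 82 of them annotated to the 10 genes in at least 1 line and 31 in each line. The DTP change differed between PC9, H1975 and HCC2935 at 41 of the 82 regions, where 42.9% of all matched regions differed. With HCC827 included it was 42, against 42.7%, but on simulated data the fit with HCC827 made many false calls (42.1% of calls against 5.29% without that line). With bin medians removed and HCC827 included, 25 of the 82 were called (30.5%, against 39% of all matched regions). The promoter region of TGFB2 differed between lines (adjusted p = 8.29e-11 without HCC827), as did the SMAD6 promoter region (0.0108). TGFBR2 differed with HCC827 in the fit (0.0269) but not without it (0.0861). For the INHBA region 45 kb out a difference between lines was not detected (0.176, and 0.141 without HCC827), nor for the ID4 promoter region (0.198 and 0.189). Of the 82 matched regions, 9 were called the same way in 3 lines (11.0%, against 5.49% of all matched regions), and these are the ones described above for INHBA, TGFBR2, SMAD3, SMAD6, SMAD7, ID1, ID3 and ID4. The 82 had to be annotated in at least 1 line and the 82802 did not, so the shares are not of like sets.

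Combination cells were compared with DTPs, and AZD5153 alone with control cells. The first comparison shares the DTP libraries, and the second the control libraries, with the comparison above, so values are given side by side and not correlated. Combination cells had 21 labelled days of osimertinib against 24 in DTPs. In the first comparison, AZD5153 and a possible stop of osimertinib for 3 days therefore cannot be told apart. In PC9, 11 of 82 regions rose and 6 fell in the combination (13.4% and 7.32%, against 10.7% and 11.6% of all regions), and 7 were called with libraries summed (against 8.14%). A fit of annotated PC9 regions only had 10409 of 69565 higher and 10975 lower. In H1975, 26 of 95 rose and 6 fell (27.4% and 6.32%, against 11.5% and 9.5%), with a median of 0.19 against −0.02. Fitting only annotated H1975 regions gave 21 and 9 (against 16.3% and 16.2%), and with libraries summed 6 were called (against 6.04%). In HCC2935, 2 of 96 rose and 9 fell (2.08% and 9.38%, against 2.37% and 6.03%), with a median of 0.17 against 0.03 over all regions, and 6 were called with libraries summed (against 5.41%). A fit of annotated HCC2935 regions only had 2489 of 65263 higher and 8073 lower. HCC827 had 0 called, as had all its regions (0% higher and 0% lower), 0 at an unadjusted p under 0.05, and 0 with DESeq2 or with the replicate block (against 0.0158%).

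Falls in the combination included regions of INHBA and ID1. The PC9 INHBA promoter region went from 5.65, 4.97 and 5.62 CPM in DTPs to 2.94, 1.92 and 2.79 CPM (log2 fold change −1.08 ± 0.27, adjusted p = 0.00126, 0.0296 with libraries summed). In HCC2935 INHBA regions 82677 and 81041 bases before the start fell, the first from 12.2, 10.4 and 12.0 to 3.79, 4.90 and 3.28 CPM (log2 fold change −1.49 ± 0.20, adjusted p = 1.66e-06, 1.51e-05 with libraries summed) and the second with log2 fold change −1.07 ± 0.21, adjusted p = 0.000371, 0.00218 with libraries summed. The ID1 region 15 kb before the start, low in DTPs, was lower again in the HCC2935 combination (1.42, 0.613 and 1.55 CPM; log2 fold change −1.76 ± 0.34, adjusted p = 0.000465, 0.000316 with libraries summed). In PC9 it went from 0.584, 1.03 and 1.81 to 0, 0.213 and 0 CPM (adjusted p = 0.00139, 0.00336 with libraries summed), where 1 read in 3 combination libraries allows no fold to be given. A SMAD3 region of HCC2935 (chr15:67146895-67147396) fell (log2 fold change −1.11 ± 0.19, adjusted p = 4.85e-05, 0.0015 with libraries summed). It is annotated as exonic in HCC2935 and is the match of the PC9 region at chr15:67146949-67147450, described above as intronic. H1975 lost more of a SMAD6 region 28177 bases before the start (log2 fold change −1.15 ± 0.24, adjusted p = 9.16e-05, 0.0118 with libraries summed).

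Rises in the combination were led in PC9 by a SMAD6 region 47010 bases before the start, from 6.03, 7.24 and 6.02 to 16.1, 13.6 and 13.5 CPM (log2 fold change 1.17 ± 0.17, adjusted p = 2.03e-09, 0.000979 with libraries summed). The SMAD3 internal start that had fallen in PC9 DTPs went from 6.42, 6.41 and 3.61 to 12.1, 10.6 and 8.79 CPM (log2 fold change 0.94 ± 0.19, adjusted p = 3.12e-05, 0.0173 with libraries summed). In H1975 a TGFBR2 exonic region rose (log2 fold change 1.16 ± 0.27, adjusted p = 0.000519, 0.0182 with libraries summed), as did the TGFB2 intronic region at chr1:218380395-218380896 (log2 fold change 0.83 ± 0.12, adjusted p = 1.56e-08, 0.0154 with libraries summed). Promoter regions as a class were higher in the combination, with medians of 0.14 in PC9, 0.20 in H1975 and 0.20 in HCC2935 over all genes, where 23.9%, 38.0% and 8.02% of them rose. Against these, the TGFBR2 promoter region rose by 0.31 ± 0.11 in PC9, 0.44 ± 0.07 in H1975 and 0.50 ± 0.16 in HCC2935 (log2, adjusted p = 0.0251, 4.16e-07 and 0.0398). With libraries summed none of these 3 was called (adjusted p = 0.459, 0.223 and 0.278). The PC9 call was lost without DTP replicate 2 (0.149) or combination replicate 1 (0.113), and the HCC2935 call without any single DTP or combination library (0.0578 to 0.305).

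**Figure D5:**
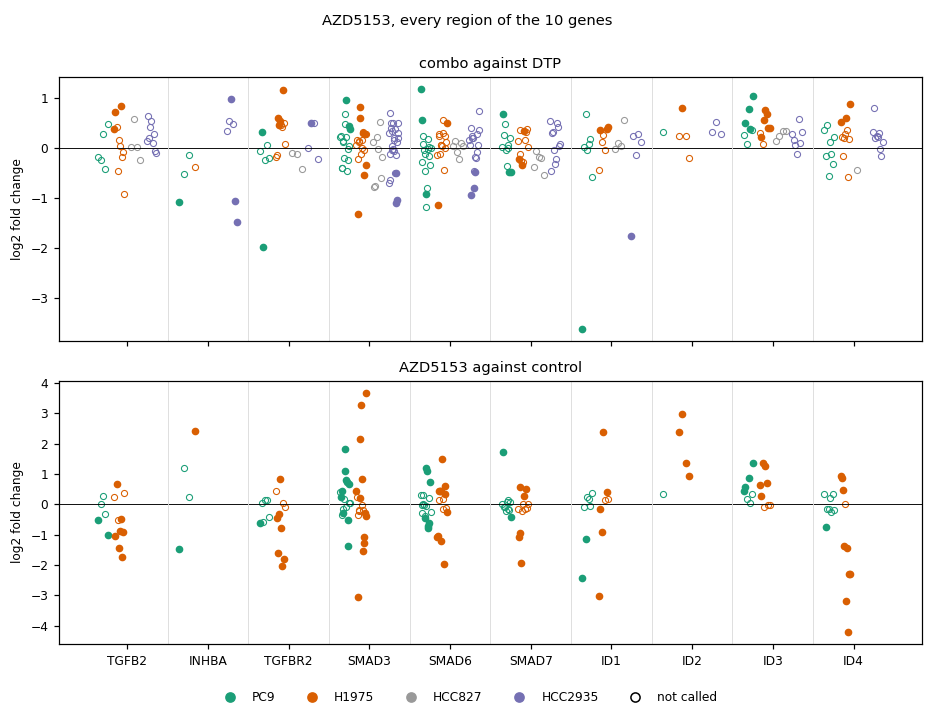
Log2 fold change (y axis, edgeR) for each annotated region of the 10 genes (x axis), with the combination against DTPs above and AZD5153 against control cells below, coloured by line, with filled points for called regions and open points for the rest. With AZD5153 alone, H1975 points spread from −4.22 at ID4 to 3.67 at SMAD3, whereas HCC2935 combination points stay between −1.76 at ID1 and 0.98.

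AZD5153 alone called 15 of 82 PC9 regions higher and 15 lower (18.3% each, against 11.3% and 14.5% of all regions), or 14 with libraries summed (against 14.2%). A fit of annotated PC9 regions only had 11424 of 69565 higher and 12483 lower. In H1975, AZD5153 alone called 32 of 95 regions higher and 35 lower (33.7% and 36.8%, against 26.7% and 31.4%), or 46 with libraries summed (against 48.3%). Scaling by library size only gave 38 higher and 30 lower (against 32.1% and 27.5%) and put the median of all H1975 regions at 0.12. A fit of annotated H1975 regions only had 26670 of 76952 higher and 30734 lower. The SMAD3 intronic region that opened in H1975 DTPs also opened here, to 10.0, 9.80 and 9.58 CPM (log2 fold change 3.67 ± 0.25, adjusted p = 3.42e-34, 6.14e-24 with libraries summed). The H1975 ID2 promoter region reached 3.92, 6.07 and 3.87 CPM (log2 fold change 2.39 ± 0.30, adjusted p = 7.28e-13, 1.66e-09 with libraries summed), with a peak in 3 of 3 AZD5153 and 3 of 3 combination libraries. The ID4 region 42116 bases after the start fell to 0.807, 0.933 and 0.510 CPM, 18.6-fold below control (log2 fold change −4.22 ± 0.23, adjusted p = 4.51e-45, 3.16e-33 with libraries summed), while the ID4 promoter region rose (log2 fold change 0.93 ± 0.10, adjusted p = 4.82e-17, 0.000275 with libraries summed). Over the promoter regions of all genes in H1975, 41.9% rose and 25% fell with AZD5153 alone, with a median of 0.15. The bin around ID4 moved by 0.26 and that around ID2 by −0.14. The ID1 region 15 kb out fell to 1.15, 0.622 and 1.22 CPM (log2 fold change −3.02 ± 0.24, adjusted p = 8.88e-27, 1.20e-18 with libraries summed). An INHBA intronic region of H1975 3722 bases before the start rose (log2 fold change 2.40 ± 0.30, adjusted p = 4.67e-13, 1.28e-09 with libraries summed). In PC9 the INHBA promoter region fell to 0.768, 1.49 and 1.69 CPM (log2 fold change −1.48 ± 0.35, adjusted p = 0.000256, 0.00408 with libraries summed) and a SMAD7 region 51327 bases after the start rose from 3.05, 4.87 and 3.18 to 12.1, 13.0 and 12.2 CPM (log2 fold change 1.73 ± 0.20, adjusted p = 7.10e-15, 4.10e-07 with libraries summed). The SMAD3 internal start also rose in PC9 (log2 fold change 0.81 ± 0.12, adjusted p = 2.88e-09, 0.00871 with libraries summed) and fell in H1975 (log2 fold change −1.52 ± 0.09, adjusted p = 5.06e-41, 1.39e-10 with libraries summed), and the difference between these lines was not tested.

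Promoter regions of 45 other genes of the pathway were read the same way. In DTPs, 4 of 42 rose and 8 fell in PC9, 11 and 7 of 40 in H1975, 0 and 0 of 28 in HCC827, and 9 and 7 of 40 in HCC2935. Over all promoter regions, 13.8% rose and 10.2% fell in PC9, 19.6% and 27.1% in H1975, 0% and 0% in HCC827, and 21.4% and 10.2% in HCC2935. PMEPA1, a target whose product restrains SMAD signalling, rose in H1975 (log2 fold change 1.65 ± 0.15, adjusted p = 2.77e-21) and HCC2935 (0.74 ± 0.16, adjusted p = 0.00027) and fell in PC9 (−0.77 ± 0.17, adjusted p = 7.28e-05). LTBP1, a binding protein that stores latent TGF-beta in the matrix, fell in PC9 (−0.75 ± 0.16, adjusted p = 5.21e-05), H1975 (−0.68 ± 0.09, adjusted p = 3.24e-12) and HCC2935 (−0.57 ± 0.19, adjusted p = 0.0156). The ligand gene GDF15 fell in PC9 (−0.92 ± 0.16, adjusted p = 6.57e-07) and HCC2935 (−0.94 ± 0.17, adjusted p = 1.3e-05) and was not called in H1975 (−0.09 ± 0.10, adjusted p = 0.485). The calls for these 3 genes were not refitted with libraries summed.

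Across the 14 groups, with each line centred on its own mean, the promoter region whose pattern was most like that of a gene was found among 11901 matched promoters. The closest were CPQ for SMAD3 (Pearson r = 0.965), HADHA for TGFBR2 (0.951), NRIP1 for ID3 (0.940), EWSR1 for SMAD6 (0.987), FBXO16 for ID1 (0.944), MEF2C-AS2 for SMAD7 (0.939), GAS6-AS1 for TGFB2 (0.957) and APTX for INHBA (0.974). Patterns were taken from the strongest promoter region in PC9. None is given for ID2, which had no annotated promoter region in PC9. ID4 is also left out, as its region (228 bases after the start) was not matched across the 4 lines. These values describe 14 group means that share lines and controls, and carry no test.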

How the data were processed

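Counts per region were used as deposited: the authors gave 1 table of raw counts a line, over regions 502 bases wide, and an annotated subset with gene symbols and distances to a start, whose counts were identical for 100% of its regions. The submitters' notes name BWA 0.7.17, SAMtools 1.9, deepTools 3.4, MACS2 2.2.6, featureCounts 2.0.0, ChIPseeker 1.29.1 and hg38, with no order or settings, and regions counted in all libraries of a line were compared within that line. The deposited peak lists give a fold enrichment and a −log10 q-value for each peak, and only the presence of a peak and its fold were read. The extraction text describes a ChIP, whereas titles and design name ATAC-seq, which is how the libraries were read.

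Libraries were grouped by their titles. Counts were tested with edgeR 4.0.16 (TMM, filterByExpr, quasi-likelihood, all groups of a line in 1 fit, R 4.3.3) over all regions of the full table, with a Benjamini-Hochberg threshold of 0.05, and CPM use the TMM-scaled totals. Log2 fold changes come from that fit. The spread of PC9 and H1975 libraries is close to sampling noise, so p-values there may measure technical spread, which is why libraries were also summed. Differences between lines were tested with limma 3.58.1 on matched regions. On simulated data, 98.5% of 200 planted 4-fold differences were recovered. All were planted in PC9 DTP libraries, in regions above a minimum mean count. Recovery of differences in other lines or in regions of fewer counts was not simulated. Of the calls on the simulated data, 42.1% were false with HCC827 and 5.29% without it, shares that hold for that number of changed regions only. For DTP against control, simulated 2-fold changes were recovered for 82% of 200 PC9 regions, 81.5% of H1975, 0% of HCC827 and 58% of HCC2935 regions. Same-numbered HCC827 libraries deviated together (r from 0.165 to 0.848 in 9 pairs), and the pairing comes from the numbers in the titles.

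The members and gene lists were chosen with earlier results of these data known. Named regions were the strongest within 1000 bases of a start, the 4 largest called rises and falls of each comparison whose libraries did not overlap and whose mean exceeded the median region, and matched regions called alike in 3 lines. Of these, the text gives those that show how each gene's regions differed. Alternatives were library size only, DESeq2 1.42.0 size factors and test, no filter, annotated regions only, medians of 10 Mb bins removed, a replicate block, libraries summed and leaving out each library. Motifs were searched only in RefSeq promoter windows. Results for 1 gene of the pathway list are not reported here.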

Additional observations from a re-analysis of the deposited data

Results flagged for a closer look

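Matching across lines singled out promoter regions whose DTP change differed between PC9, H1975 and HCC2935 by the interaction test (limma, adjusted p over all matched regions, HCC827 left out). The TGFB2 promoter region differed with an adjusted p of 8.29e-11, and was lower in PC9 DTPs and higher in those of H1975 and HCC2935. The SMAD3 promoter region differed with an adjusted p of 0.000408, the ID1 region over the start with 0.00133 and the SMAD7 region before the first start with 0.00413. These values include shifts of the surrounding 10 Mb bins. In HCC2935 DTPs the bin around SMAD3 rose by 0.37 and that around ID1 by 0.36. In H1975 DTPs the bin around TGFB2 rose by 0.27 and that around SMAD7 by 0.20. With bin medians removed and HCC827 included, 25 of 82 matched regions of the 10 genes differed, against 42 before. Of all matched regions 42.9% differed in the same test, and the causes were not tested.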

How the results depend on the processing

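Across 93 named regions and comparisons, 1820 values were recomputed, of which 1686 kept their direction and their side of the threshold, 134 were no longer called and 0 reversed. Summing libraries removed 33 of these calls, the DESeq2 test 17, no filter on low counts 13 and removal of bin medians 6, whereas the replicate block removed 0. With libraries summed, the called regions of the 10 genes went for DTP against control from 38 to 23 (PC9) and from 66 to 40 (H1975), from 17 to 7 in PC9, 32 to 6 in H1975 and 11 to 6 in HCC2935 for the combination, and from 30 to 14 for AZD5153 in PC9. The DESeq2 test gave 7, 19 and 5 for the combination in these lines and 15 for AZD5153 in PC9, and no filter gave 6 for the HCC2935 combination. With the replicate block, HCC827 DTPs went from 0 to 1, and with the block and bin medians removed, an alternative chosen after seeing the data, to 3. The block gave 38, 17 and 30 in PC9, 66, 32 and 65 in H1975, and 54 and 12 in HCC2935, so it changed no other count by over 1.5 times, and same-numbered libraries of those lines did not all deviate together. Matched regions that differed between lines went from 42 to 25 with bin medians removed. Leaving out 1 library gave 33 to 38 (PC9 DTP), 53 to 65 (H1975 DTP), 0 to 0 (HCC827, both comparisons), 48 to 55 (HCC2935 DTP), 13 to 17, 23 to 33 and 5 to 11 (combination in PC9, H1975 and HCC2935, lowest without HCC2935 DTP replicate 2), 21 to 29 and 56 to 67 (AZD5153 in PC9 and H1975), and 25 to 30 for the matched regions, lowest without replicate 2. Apart from libraries summed, where the fit replaces the spread between libraries, the causes were not tested. Depth limits regions of few reads, such as those with 0 CPM in a library. In HCC827, whose libraries varied by 44.9% beyond sampling noise, 0% of simulated 2-fold changes were recovered, and the part of depth in this was not tested.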
